A study of Homo sapiens with 12 samples.

Results

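Cell adhesion molecules of the nervous system are proteins of the cell surface that neurons and glia use to bind each other, to extend axons and to assemble myelin, and several of them are also made by melanoma cells. The 10 genes described here were taken by symbol from both deposited tables, out of 23273 genes listed in each. They were the L1 family members L1CAM, NRCAM and CHL1, the neural cell adhesion molecules NCAM1 and NCAM2, the contactins CNTN1 and CNTN6, the nectin-like CADM1, the activated leukocyte molecule ALCAM, and the receptor phosphatase PTPRZ1. RNA was sequenced in 12 libraries of 2 established human melanoma lines, COLO858 and MMACSF, both of which carry an activating BRAF mutation. Cells received DMSO, the vehicle, or 0.2 μM vemurafenib, an inhibitor of RAF kinases, for 24 or 48 h, with 2 replicates per line and condition. How long the DMSO cells were cultured is not in the labels, and both drug times of a line share 1 pair of controls. The lines were grown in different media and seeded at different confluency, so that line, medium and confluency cannot be told apart. Each line is a single model of the disease.

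Most of these proteins carry immunoglobulin and fibronectin domains outside the cell and bind a like molecule, or a partner of the same class, on a neighboring cell. L1 family proteins tie the membrane to the spectrin skeleton through ankyrins. Contactins lack a cytoplasmic part, are held by a lipid anchor and act through partners such as L1 family proteins and PTPRZ1. PTPRZ1 itself is a tyrosine phosphatase whose outer part binds contactins, tenascins and the growth factor pleiotrophin. In the nervous system, members occur on neurons, oligodendrocyte precursors and Schwann cells. Melanocytes arise from the same embryonic source as Schwann cells, the neural crest.

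Values are FPKM, a measure of reads per transcript length and library size, and so can be compared between genes. The tables of the lines may have been scaled separately, and levels of the lines are therefore set side by side without a test. Read depth is unknown. The sum of FPKM, which is not a depth, was 670310 to 1013040 per library, and the small RNA gene MIR4461 alone made up 14.1% to 43.4% of it. A higher FPKM in these bulk samples can come from more RNA per cell or from more cells that express the gene, and these cannot be told apart. Of 8 melanocytic markers, 6 in COLO858 and 8 in MMACSF were at 1 FPKM or more in a DMSO library. In COLO858 the pigment genes MLANA and TYR were at 0.690 FPKM or less under DMSO, while SOX10 was at 227 and 160 FPKM. The neuron markers SNAP25, RBFOX3 and STMN2 did not exceed 0.433 FPKM in any library. SYP, another of them, was at 2.46 to 6.67 FPKM over the libraries. SYT1 and ELAVL3 reached 1.27 and 0.944 FPKM in COLO858 and were listed at 0 in MMACSF. The summed level of the 6 neuron markers lay between 2.46 and 8.34 FPKM. The astrocyte marker GFAP was listed at 0 in all COLO858 libraries.

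The start regions of the genes were looked up in RefSeq, which matched 8 of the 10 members with 14 annotated starts. Each sequence covers 250 bases before and 50 bases after a start in GRCh38.p14, 5′ to 3′ on the strand of the gene. The RNA values themselves come from hg19. Shown are CNTN6, PTPRZ1 and ALCAM, whose drug response differed most between the lines at 48 h, and L1CAM, which had the highest FPKM of the 10 genes in COLO858. Capitals mark matches to the AP-1 motif TGANTCA, the M-box CATGTG, which MITF can bind, or the GC box GGGCGG, on either strand.
CNTN6, chr3:1092774-1093073, plus strand: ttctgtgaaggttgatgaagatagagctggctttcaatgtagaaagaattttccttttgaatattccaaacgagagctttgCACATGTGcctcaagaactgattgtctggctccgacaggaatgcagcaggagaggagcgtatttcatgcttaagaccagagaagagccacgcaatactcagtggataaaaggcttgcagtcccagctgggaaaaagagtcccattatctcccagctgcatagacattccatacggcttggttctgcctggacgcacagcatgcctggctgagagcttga
PTPRZ1, chr7:121872911-121873210, plus strand: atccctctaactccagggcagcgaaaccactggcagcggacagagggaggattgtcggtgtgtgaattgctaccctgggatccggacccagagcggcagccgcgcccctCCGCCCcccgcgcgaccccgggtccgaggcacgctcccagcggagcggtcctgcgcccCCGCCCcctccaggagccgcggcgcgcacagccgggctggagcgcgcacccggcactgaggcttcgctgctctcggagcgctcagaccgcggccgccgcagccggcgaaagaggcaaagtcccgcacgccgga
ALCAM, chr3:105366659-105366958, plus strand: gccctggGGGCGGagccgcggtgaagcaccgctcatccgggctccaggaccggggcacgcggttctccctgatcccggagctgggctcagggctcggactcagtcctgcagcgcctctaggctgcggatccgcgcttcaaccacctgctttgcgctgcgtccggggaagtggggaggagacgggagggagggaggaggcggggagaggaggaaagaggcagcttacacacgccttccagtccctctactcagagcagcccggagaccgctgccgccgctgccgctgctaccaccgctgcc
L1CAM, chrX:153875895-153876194, minus strand: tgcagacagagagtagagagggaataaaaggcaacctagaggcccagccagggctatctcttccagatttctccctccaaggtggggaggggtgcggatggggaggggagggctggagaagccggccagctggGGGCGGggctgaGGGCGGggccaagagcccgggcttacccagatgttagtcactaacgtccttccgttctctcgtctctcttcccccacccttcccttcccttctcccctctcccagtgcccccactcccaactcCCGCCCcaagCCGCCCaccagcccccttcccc

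The 4 sequences differed in composition. The PTPRZ1 and ALCAM windows had a GC content of 73.3% and 70.0%, with 38 and 26 CpG dinucleotides. The CNTN6 window had 47.3% GC and 6 CpG, against medians of 58.7% and 14 over 35116 windows. In the CNTN6 window the capitals are a single stretch that matches the M-box on both strands, so that its 2 matches overlap. The M-box letters were found in 3 of the 14 windows of the members and in 11.1% of all windows. The GC box was found in 5 of the 14 windows and in 45.0% of all, and L1CAM had 4 matches in the window shown. The AP-1 letters were found in 1 of the 14 windows, at a downstream start of NRCAM, and in 7.71% of all. None of the 4 sequences shown held the AP-1 letters. These matches describe letters and not binding.

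In untreated cells L1CAM and CADM1 were the highest members in both lines, and the order below them differed. Under DMSO, L1CAM was at nearly the same FPKM in the lines, at 27.9 ± 4.36 in COLO858 and 27.3 ± 4.54 in MMACSF (SD, n = 2 here and below). L1CAM (chrX:153126969-153151627, minus strand, GRCh37) encodes the founding member of its family, a promoter of axon growth and of cell motility. In COLO858 it was the highest of the 10 genes, followed by CADM1 at 13.7 ± 2.66 FPKM and PTPRZ1 at 3.56 ± 0.886 FPKM. ALCAM and NCAM1 followed at 2.30 ± 0.462 and 1.35 ± 0.0528 FPKM. NCAM2, CHL1, NRCAM and CNTN6 lay between 0.597 and 0.957 FPKM on average, and the replicates of neighbors in this order overlapped. CNTN1 was lowest, at 0.148 ± 0.0157 FPKM.

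In MMACSF under DMSO the highest member was CADM1, at 47.6 ± 9.03 FPKM, above L1CAM. CADM1 encodes a nectin-like protein that joins epithelial cells, synapses and mast cells. NCAM1, CHL1 and PTPRZ1 followed at 19.1 ± 0.922, 18.9 ± 3.81 and 16.5 ± 2.99 FPKM, and their replicates overlapped in that order. NRCAM was at 7.82 ± 1.79 FPKM and CNTN1 at 4.37 ± 1.52 FPKM. NCAM2 was at 0.806 ± 0.252 FPKM. CNTN6 was listed at 0.0311 and 0 FPKM and ALCAM at 0 and 0.0183 FPKM in the DMSO replicates of MMACSF. CHL1, NRCAM and CNTN1, at 4.37 to 18.9 FPKM in MMACSF, all averaged under 1 FPKM in COLO858.

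**Figure D1:**
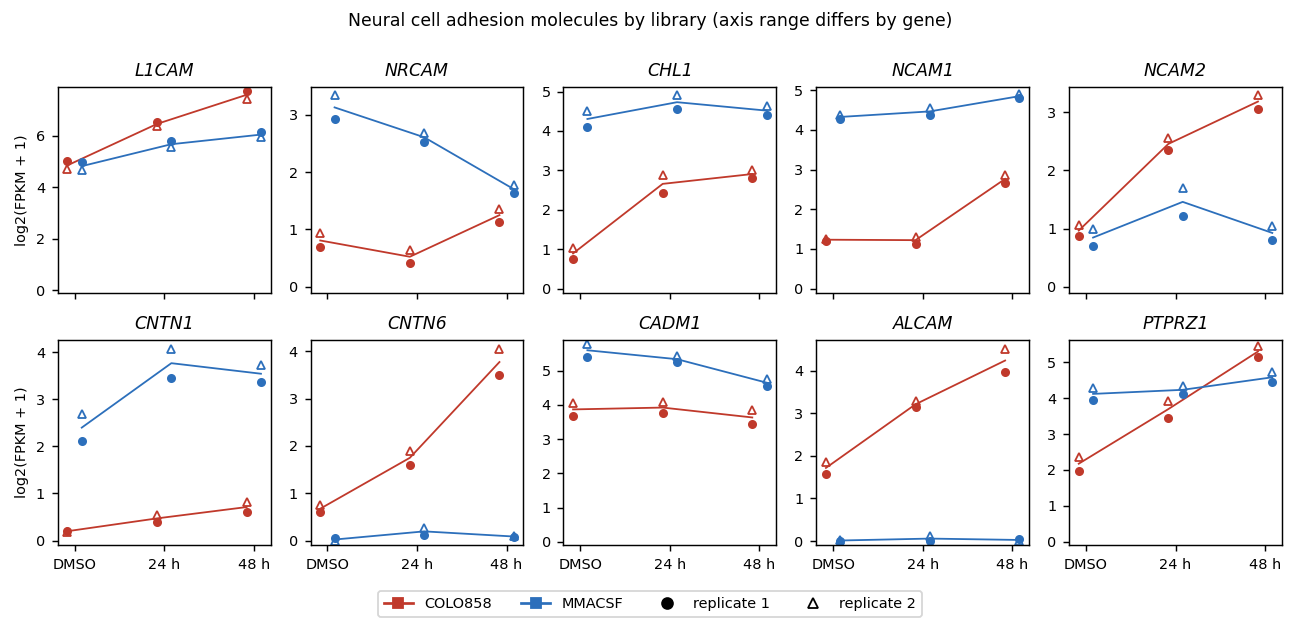
Expression of the 10 genes in each library, as log2(FPKM + 1), for untreated cells and each drug time, with COLO858 in red and MMACSF in blue. Filled circles are replicate 1, open triangles replicate 2 and lines join the means of the 2 replicates. ALCAM and CNTN6 climb in COLO858 and stay near 0 in MMACSF, and NRCAM falls in MMACSF.

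In COLO858 7 of the 10 members passed the threshold for a rise in drug, 3 of them by 24 h. After 24 h, L1CAM, CHL1 and NCAM2 were past the threshold of an adjusted p under 0.01 (limma on log2(FPKM + 1), Benjamini-Hochberg over 12696 genes). After 48 h, 7 members had risen, namely L1CAM, CHL1, NCAM1, NCAM2, CNTN6, ALCAM and PTPRZ1. The share of all genes called in COLO858 was 9.82% at 24 h and 9.47% at 48 h, and that of genes called higher was 4.11% and 4.74%. A gene was tested where a group mean reached 1 FPKM, which 9 of the 10 members did in COLO858. CHL1, NCAM2, CNTN6 and NRCAM reached it only in drug, so that these counts are a description and support nothing by themselves. Without any minimum the same 7 genes were called at 48 h. CNTN1 was not tested in this line. The median log2 change of the 9 genes tested was 1.49 at 24 h and 2.22 at 48 h, against 0.06 and -0.01 for all genes tested. These medians take in the genes that reached the minimum only in drug and are likewise a description. Leaving out any 1 of the 4 libraries compared at 48 h left 0 to 2 members and 137 to 151 of all genes past the threshold, where all libraries gave 1202 genes. The 24 h calls were lost without any 1 of their 4 libraries.

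L1CAM stood at 31.0 and 24.8 FPKM under DMSO, at 92.7 and 81.3 FPKM after 24 h and at 212 and 173 FPKM after 48 h in COLO858. The 3 groups did not overlap, and each was above the one before. Of all genes tested in COLO858, 63.1% had no overlap between DMSO and 24 h, 61.3% none between DMSO and 48 h and 46.7% none between the drug times. The log2 fold-change was 1.61 ± 0.18 (SE) at 24 h (limma adjusted p = 0.00415) and 2.74 ± 0.18 at 48 h (limma adjusted p = 0.00115). The ratio of the group means was 3.12 and 6.89. Its further change of 1.13 from 24 to 48 h did not pass the threshold (limma adjusted p = 0.0302).

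CHL1, the close homolog of L1, encodes a protein that guides axons and dendrites. Its gene (chr3:238446-451100, plus strand, GRCh37) lies near the tip of chromosome 3 beside CNTN6 and CNTN4. In COLO858 it had 0.693 and 1.04 FPKM under DMSO, 4.39 and 6.39 FPKM at 24 h and 5.97 and 7.07 FPKM at 48 h. Both drug groups lay above DMSO and overlapped each other. The log2 fold-change was 1.76 ± 0.22 at 24 h and 2.01 ± 0.22 at 48 h (limma adjusted p = 0.00534 and 0.00415). Its 24 h call was lost without a minimum FPKM and with only the groups compared in the fit (limma adjusted p = 0.0103 and 0.0118). From 24 to 48 h it changed by 0.25, with an interval of -0.30 to 0.80.

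NRCAM (chr7:107788068-108097161, minus strand, GRCh37) encodes the third L1 family protein, which clusters sodium channels at nodes of Ranvier. COLO858 had 0.609 and 0.906 FPKM under DMSO, 0.327 and 0.560 FPKM at 24 h and 1.20 and 1.57 FPKM at 48 h. The 24 h replicates were the lowest and the 48 h replicates the highest. Neither change against DMSO passed the threshold, with log2 values of -0.28 ± 0.18 and 0.44 ± 0.18 (limma adjusted p = 0.286 and 0.128).

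NCAM1 and NCAM2 encode the classical neural cell adhesion molecules, NCAM1 being the carrier of polysialic acid and NCAM2 a relative best known from olfactory axons. NCAM1 (chr11:112831997-113149158, plus strand, GRCh37) was at 1.31 and 1.39 FPKM under DMSO, 1.19 and 1.48 FPKM at 24 h and 5.30 and 6.33 FPKM at 48 h in COLO858. The DMSO and 24 h replicates overlapped and the 48 h replicates lay far above both. The log2 change was -0.01 ± 0.16 at 24 h and 1.53 ± 0.16 at 48 h (limma adjusted p = 0.964 and 0.00351). NCAM1 was the only member called between 24 and 48 h in COLO858, by 1.54 ± 0.16 (limma adjusted p = 0.00941), where 1.38% of all genes were called and 1.17% called higher. That call was lost without any 1 of the 4 libraries compared, without a minimum FPKM and with a minimum of 3 FPKM.

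NCAM2 (chr21:22370727-22915650, plus strand, GRCh37) took a different course. It was at 0.826 and 1.09 FPKM under DMSO, 4.12 and 4.86 FPKM at 24 h and 7.35 and 8.86 FPKM at 48 h in COLO858. The log2 change was 1.49 ± 0.17 at 24 h and 2.22 ± 0.17 at 48 h (limma adjusted p = 0.00442 and 0.00168). Its groups did not overlap, as those of L1CAM. Between the drug times NCAM2 changed by 0.73 (limma adjusted p = 0.0801).

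At 48 h CNTN6 and PTPRZ1 had the largest log2 changes of the members tested in COLO858, while at 24 h CHL1 and L1CAM had. The order at 24 h depends on the scale, which adds 1 FPKM. By the ratio of the group means at 24 h L1CAM, at 3.12, was below CHL1, NCAM2, CNTN6, ALCAM and PTPRZ1. These were at 6.23, 4.69, 3.99, 3.59 and 3.41. CNTN6 (chr3:1134342-1445901, plus strand, GRCh37) encodes a contactin of the cerebellum and a ligand of NOTCH receptors. It went from 0.518 and 0.676 FPKM under DMSO to 2.02 and 2.73 FPKM at 24 h and 10.3 and 15.5 FPKM at 48 h. The 3 groups did not overlap. The ratio of its 48 h and DMSO means was 21.6, and its log2 change on the scale used was 3.10 ± 0.23 (limma adjusted p = 0.00156). At 24 h the change was 1.07 ± 0.23 (limma adjusted p = 0.0269), so that most of it fell between 24 and 48 h, where it was 2.02 ± 0.23 (limma adjusted p = 0.0130). Its neighbor CNTN4 had log2 changes of -0.41 ± 0.23 at 24 h and 0.17 ± 0.23 at 48 h, neither past the threshold (limma adjusted p = 0.240 and 0.624).

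PTPRZ1 (chr7:121513143-121702090, plus strand, GRCh37) was at 2.93 and 4.18 FPKM under DMSO, 10.0 and 14.3 FPKM at 24 h and 34.4 and 42.9 FPKM at 48 h. The groups did not overlap. Its log2 change was 1.52 ± 0.25 at 24 h (limma adjusted p = 0.0118) and 3.13 ± 0.25 at 48 h (limma adjusted p = 0.00180). By FPKM it was second to L1CAM at 48 h, where the L1CAM mean was 192 ± 28.0 and the PTPRZ1 mean 38.6 ± 6.00 FPKM.

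ALCAM (chr3:105085753-105295744, plus strand, GRCh37) encodes a partner of the lymphocyte receptor CD6 that also binds itself and has long been studied in melanoma. COLO858 had 1.97 and 2.63 FPKM under DMSO, 7.82 and 8.70 FPKM at 24 h and 14.7 and 21.6 FPKM at 48 h. No groups overlapped. The log2 change was 1.49 ± 0.23 at 24 h, just short of the threshold (limma adjusted p = 0.0100214), and 2.52 ± 0.23 at 48 h (limma adjusted p = 0.00260). At 24 h ALCAM and PTPRZ1 both passed with median-ratio rescaling of the libraries and without the small RNA genes, and ALCAM also with 0.1 FPKM added and in limma without a trend.

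CADM1 and CNTN1 made up the rest of the group in COLO858. CADM1 (chr11:115039938-115375675, minus strand, GRCh37) was at 11.8 and 15.6 FPKM under DMSO, 12.5 and 15.9 FPKM at 24 h and 9.74 and 13.3 FPKM at 48 h. The 3 groups overlapped, and the interval of its log2 change at 48 h ran from -0.82 to 0.35. CNTN1 (chr12:41086241-41466217, plus strand, GRCh37), whose product helps to form paranodal junctions of myelinated axons, was at 0.159 and 0.137 FPKM under DMSO and at 0.525 and 0.758 FPKM at 48 h. That is above DMSO in both replicates, but under 1 FPKM throughout.

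**Figure D2:**
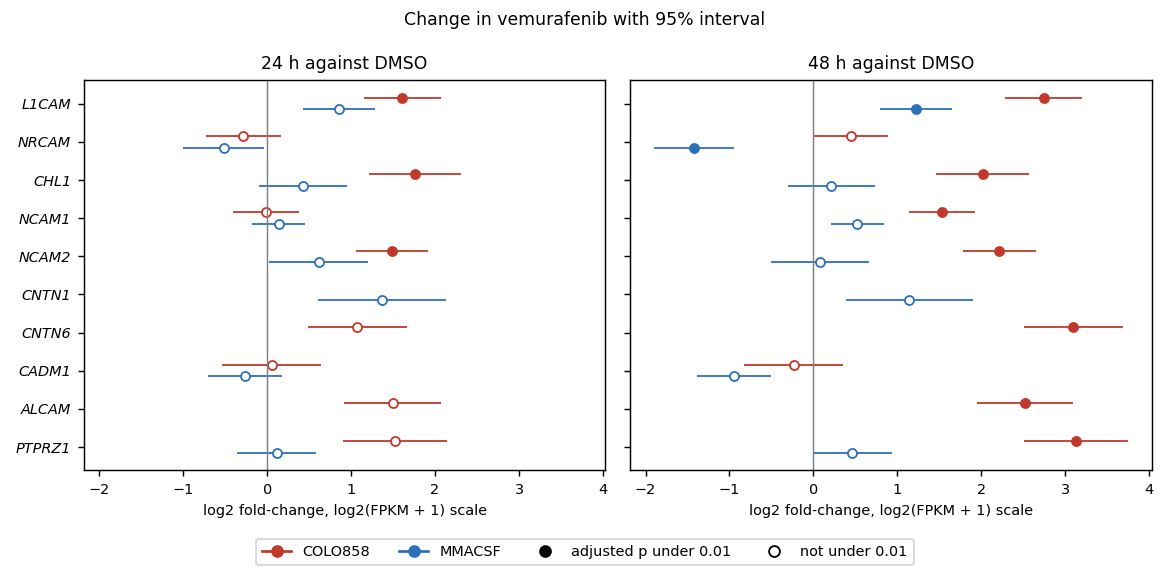
Log2 fold-change of each gene in vemurafenib against DMSO, on the log2(FPKM + 1) scale, at 24 h (left) and 48 h (right) in COLO858 (red) and MMACSF (blue). Bars are 95% intervals from limma, not adjusted for the number of genes, and filled points had an adjusted p under 0.01. At 48 h 7 genes in COLO858 and 2 in MMACSF are filled. CNTN1 was not tested in COLO858, nor CNTN6 and ALCAM in MMACSF.

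In MMACSF, given the same drug and dose, 2 of these genes passed the threshold, both at 48 h. After 24 h, 0 of the 8 members tested passed the threshold in limma, where 5.83% of 12599 genes did. An unadjusted limma p under 0.05 was seen in 4 of the 8 and in 4534 of the 12599 genes. Among the 4 was NCAM2, which reached the minimum FPKM in MMACSF only at 24 h, so that its place supports nothing by itself. After 48 h L1CAM had risen and NRCAM had fallen, where 8.83% of all genes were called, 3.42% higher and 5.41% lower. An unadjusted limma p under 0.05 was then seen in 5 of the 8 and in 4907 of the 12599 genes. From 24 to 48 h 0 of the 8 and 0.222% of all genes were called in limma. An unadjusted limma p under 0.05 was seen in 3 of the 8 and in 879 of the 12599 genes. The median log2 change of the 8 was 0.28 at 24 h and 0.34 at 48 h, against 0.07 and 0.06 for all genes tested. Leaving out any 1 of the 4 libraries compared at 48 h left 0 of the 2 calls and 114 to 135 of the 1113 calls over all genes. Both calls were also lost without a minimum FPKM and when only the libraries of the 2 groups entered the fit. These fits called 842 and 576 of all genes.

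L1CAM in MMACSF was at 30.5 and 24.1 FPKM under DMSO, 54.0 and 46.0 FPKM at 24 h and 70.1 and 60.0 FPKM at 48 h. The groups followed each other upward with no overlap, as in COLO858. Over all genes tested in MMACSF, DMSO did not overlap with 24 h in 59.8% or with 48 h in 64.5%, and the drug times did not overlap in 32.1%. The log2 change was 0.85 ± 0.17 at 24 h (limma adjusted p = 0.0251) and 1.23 ± 0.17 at 48 h (limma adjusted p = 0.00793). With median-ratio rescaling the 48 h change no longer passed.

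NRCAM in MMACSF went the other way, from 6.55 and 9.08 FPKM under DMSO to 4.77 and 5.41 FPKM at 24 h and 2.11 and 2.40 FPKM at 48 h. Each group was below the one before. The 48 h change fell by 1.42 on the log2 scale, with an SE of 0.19 (limma adjusted p = 0.00710), which is a DMSO mean 3.46 times the 48 h mean. CADM1 had 41.2 and 54.0 FPKM under DMSO, 36.7 and 42.0 FPKM at 24 h and 22.3 and 25.9 FPKM at 48 h. The 48 h replicates were the lowest, but the log2 change of -0.95 ± 0.18 missed the threshold (limma adjusted p = 0.0173). It passed with median-ratio rescaling and without the small RNA genes.

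CNTN1 in MMACSF was at 3.30 and 5.45 FPKM under DMSO, 10.00 and 15.8 FPKM at 24 h and 9.29 and 12.1 FPKM at 48 h. Both drug groups lay above DMSO and overlapped each other. The log2 changes of 1.37 ± 0.30 and 1.14 ± 0.30 missed the threshold (limma adjusted p = 0.0326 and 0.0465). NCAM1 was at 18.4 and 19.7 FPKM under DMSO and at 27.0 and 28.7 FPKM at 48 h, a change of 0.52 ± 0.13 (limma adjusted p = 0.0355).

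CHL1 and PTPRZ1, which were abundant in untreated MMACSF cells, did not pass the test in drug. CHL1 was at 16.2 and 21.6 FPKM under DMSO, at 22.4 and 29.0 FPKM at 24 h and at 20.0 and 23.9 FPKM at 48 h. The 24 h replicates lay above DMSO and the 48 h replicates overlapped with both. The interval of its log2 change at 48 h was -0.31 to 0.73. PTPRZ1 was at 14.4 and 18.6 FPKM under DMSO, at 16.4 and 19.3 FPKM at 24 h and at 20.7 and 25.4 FPKM at 48 h. Its 48 h replicates lay above the other groups, with an interval of the log2 change against DMSO of -0.01 to 0.93. NCAM2 was highest at 24 h, at 1.32 and 2.25 FPKM, against 0.628 and 0.984 FPKM under DMSO and 0.742 and 1.07 FPKM at 48 h. ALCAM was listed at 0 and 0.0838 FPKM at 24 h and at 0.0361 and 0 FPKM at 48 h, and CNTN6 at 0.0846 and 0.207 FPKM and then 0.0510 and 0.0718 FPKM. These 2 genes, which climbed steeply in COLO858, stayed far under 1 FPKM in every library of MMACSF.

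The difference between the lines was tested as an interaction in limma over the 12 libraries and 13595 genes. At 48 h against DMSO the change of 8 of the 10 members was more positive in COLO858, where 7.48% of all genes were called and 4.19% in that direction. CNTN6 led with a difference of 3.03 ± 0.26 (limma adjusted p = 0.000217), followed by PTPRZ1 with 2.66 ± 0.32 (limma adjusted p = 0.00109) and ALCAM with 2.51 ± 0.26 (limma adjusted p = 0.000487). NCAM2, NRCAM, CHL1, L1CAM and NCAM1 differed by 2.14, 1.87, 1.80, 1.52 and 1.01. CNTN6 reached the minimum FPKM only in COLO858 in drug, and NCAM2 only in drug groups. Their differences are thus a description, and their places in the count support nothing by themselves. For NRCAM the difference combined a fall in MMACSF with a change in COLO858 that did not pass the test, and for L1CAM it lay between 2 rises. CADM1 differed by 0.71, with an interval of 0.02 to 1.40 (limma adjusted p = 0.172). CNTN1 was the only member with the more positive change in MMACSF, with -0.63 and an interval of -1.45 to 0.19 (limma adjusted p = 0.313). Its sign turned, to 0.26, when 0.1 FPKM was added in place of 1.

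NCAM2, CNTN6, ALCAM and PTPRZ1 stayed past the threshold without any 1 of the 8 libraries compared, while 4 to 6 of the 8 calls in all did so. For NCAM2 and CNTN6, which reached the minimum FPKM only in drug, this is a description and no support. NRCAM was lost in 1 of these cases, when replicate 1 of MMACSF at 48 h was left out. L1CAM passed in 2 of the 8, and CHL1 and NCAM1 in 0 of them. L1CAM was also lost with median-ratio rescaling. The differences are on the log2(FPKM + 1) scale, which holds the changes of genes near 0 FPKM, such as ALCAM and CNTN6 in MMACSF, close to 0.

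At 24 h against DMSO 0 of the 10 differences passed in limma, where 3.71% of all genes did. An unadjusted limma p under 0.05 was seen in 7 of the 10 and in 2884 of the 13595 genes. ALCAM was nearest, at 1.45 ± 0.26 (limma adjusted p = 0.0112), and passed with median-ratio rescaling and without the small RNA genes. Between 24 and 48 h the change of CNTN6, NRCAM and NCAM1 was more positive in COLO858, by 2.13 ± 0.26, 1.63 ± 0.25 and 1.16 ± 0.18 (limma adjusted p = 0.00248, 0.00723 and 0.00729), where 2.96% of all genes were called and 2.46% in that direction. All 3 were lost when only the groups compared entered the fit, where the 403 calls over all genes became 196. NRCAM and NCAM1 were also lost without any 1 of the 8 libraries, and CNTN6 without some of them. All 10 members had a positive difference in this comparison, and 45.1% of all genes did. For CADM1 this was a smaller fall in COLO858, -0.29 against -0.69. The members were chosen with earlier results of these data known, so that this count is a description and supports nothing by itself. The comparisons share libraries, so that these counts are not independent of each other.

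**Figure D3:**
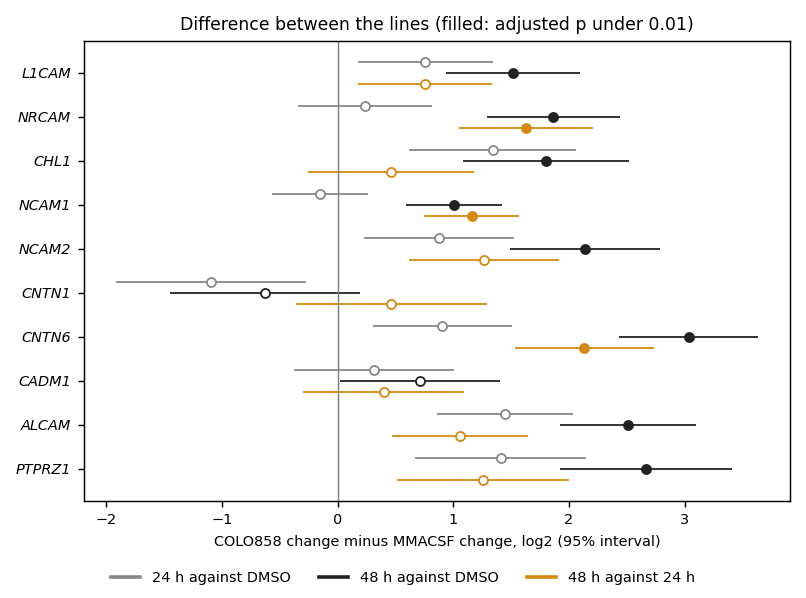
Change in COLO858 minus change in MMACSF for each gene, in log2 units on the log2(FPKM + 1) scale, at 24 h against DMSO (grey), 48 h against DMSO (black) and 48 h against 24 h (orange). Bars are 95% intervals and filled points had an adjusted p under 0.01. Of the black points, 8 are filled, from 1.01 for NCAM1 to 3.03 for CNTN6, and CNTN1 is the only one below 0, at -0.63, or 0.26 with 0.1 FPKM added in place of 1.

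As a group, the 10 genes summed to 51.8 and 52.4 FPKM in the DMSO libraries of COLO858, to 135 and 137 FPKM at 24 h and to 302 and 290 FPKM at 48 h. In MMACSF the sums were 131 and 154, then 165 and 182, then 172 and 180 FPKM. COLO858 thus lay below MMACSF under DMSO and above it at 48 h, as far as the tables can be set side by side. L1CAM made up 47.3% to 70.3% of the sum in the libraries of COLO858 and 15.7% to 40.7% in those of MMACSF. Without L1CAM, COLO858 had 20.8 and 27.6 FPKM under DMSO and 89.5 and 118 FPKM at 48 h, while MMACSF had 101 and 129 FPKM and then 102 and 120 FPKM. The CADM1 share in MMACSF was 31.4% and 35.2% under DMSO and 12.9% and 14.4% at 48 h.

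At 48 h the order of levels in COLO858 was L1CAM, PTPRZ1, ALCAM, CNTN6, CADM1, NCAM2, CHL1, NCAM1, NRCAM and CNTN1. The replicates of ALCAM, CNTN6 and CADM1 overlapped with their neighbor, as did those of CHL1 and NCAM1. In MMACSF the order at 48 h was L1CAM, NCAM1, CADM1, PTPRZ1, CHL1, CNTN1, NRCAM, NCAM2, CNTN6 and ALCAM. There CADM1, PTPRZ1 and CHL1 overlapped with their neighbor. In both lines L1CAM was first and above the second gene in both replicates.

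The replicates of L1CAM were ordered unlike those of the other members. Replicate 1 of L1CAM was higher than replicate 2 in 6 of 6 groups, while over all members replicate 2 was higher in 51 of 60. The share of MIR4461 was also higher in replicate 2 of every group. The part of this in the results was not tested.

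The summed FPKM of the 8 melanocytic markers was also higher in drug in both lines, though not on the course of the members. In COLO858 the replicates were at 702 and 717 under DMSO, at 3922 and 4158 at 24 h and at 4144 and 4149 at 48 h. The drug times thus overlapped, unlike those of the member sum. DCT was the highest of these markers there, at 252 and 283 FPKM under DMSO and 2139 and 2161 FPKM at 48 h. PMEL, TYRP1, SOX10 and S100B were also higher at 48 h. MITF overlapped with DMSO, and MLANA and TYR did not exceed 1.21 FPKM. In MMACSF the sums were at 11159.5 and 11373 under DMSO and at 16831 and 17555 at 48 h. There S100B was lower at 48 h, MITF overlapped with DMSO and the others were higher. Some markers of Schwann cells and glia were higher in drug. PMP2, a myelin protein gene, was at 0.689 and 1.17 FPKM under DMSO and at 25.8 and 48.1 FPKM at 48 h in COLO858, and at 0.960 and 1.56 and then 1.24 and 1.53 FPKM in MMACSF. MBP, the gene of myelin basic protein, was at 0.639 and 0.511 FPKM and then 9.63 and 9.66 FPKM in COLO858, and at 192 and 181 and then 367 and 331 FPKM in MMACSF. GALC and GFAP did not exceed 0.622 FPKM in any library. The sum of 6 fibroblast markers was 5.88 to 8.91 FPKM under DMSO and 23.5 to 34.0 FPKM at 48 h in COLO858, of which the highest was LUM at 15.3 and 25.6 FPKM. In MMACSF the same sum was 54.9 to 76.7 FPKM under DMSO and 19.3 to 27.9 FPKM at 48 h. The 6 leukocyte markers summed to 13.4 to 16.8 FPKM under DMSO and 4.44 to 5.53 FPKM at 48 h in COLO858, and to 83.1 to 89.5 and then 77.4 to 84.1 FPKM in MMACSF. Most of this was CD68, and CD3E was listed at 0 throughout. The 6 epithelial markers summed to 62.8 to 72.3 FPKM under DMSO and 11.2 to 11.8 FPKM at 48 h in COLO858, and to 58.0 in both DMSO libraries and 50.2 to 50.9 FPKM at 48 h in MMACSF, with KRT5 listed at 0. The part of these markers in the results was not tested.

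Genes whose proteins bind or process the members were followed as 103 partner genes in 7 lists. At 48 h 11 of the 69 tested passed in COLO858, 7 higher and 4 lower, and 10 of the 68 tested in MMACSF, 7 higher and 3 lower. These are 15.9% and 14.7%, next to 9.47% and 8.83% of all genes. The counts of single lists below rest on few genes and stand against the same shares of all genes. The median log2 change of the partners was 0.17 and 0.14. Between the lines 12 of 77 differed, or 15.6%, where 7.48% of all genes did. Of the 12, 7 had the more positive change in COLO858, as had 4.19% of all genes. With only the groups compared in the fit, 5 and 6 partners passed within the lines, and without any 1 of the 4 libraries 2 and 1 did.

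Among the secreted and matrix partners, 5 of 10 were tested in COLO858 and 2 in MMACSF, and in each line 1 rose and 1 fell. TNC, the gene of tenascin-C and a ligand of contactins and PTPRZ1, fell in both. It was at 256 and 247 FPKM under DMSO and 47.4 and 48.9 FPKM at 48 h in COLO858, and at 156 and 153 and then 7.76 and 8.08 FPKM in MMACSF. The log2 changes were -2.36 ± 0.11 and -4.12 ± 0.11 (limma adjusted p = 0.000536 and 0.000325). The difference of 1.76 ± 0.12 between them also passed (limma adjusted p = 5.68e-05). BCAN, the gene of the brain proteoglycan brevican, rose in both, by 1.34 ± 0.17 in COLO858 and 2.79 ± 0.23 in MMACSF (limma adjusted p = 0.00600 and 0.00189). It stood at 8.92 and 7.00 FPKM at 48 h in COLO858 and at 412 and 331 FPKM in MMACSF.

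Of the 16 receptor partners 13 were tested in each line. ITGB3, an integrin chain that L1CAM can bind, had 167 and 181 FPKM under DMSO and 15.5 and 15.0 FPKM at 48 h in COLO858. This was a log2 change of -3.43 ± 0.12 (limma adjusted p = 0.000262), against -0.65 ± 0.16 in MMACSF (limma adjusted p = 0.0403). The difference between the lines was -2.78 ± 0.19 (limma adjusted p = 6.15e-05). PTPRM, a receptor phosphatase that binds itself between cells, was the 1 receptor partner that rose in COLO858, by 0.94 ± 0.13 (limma adjusted p = 0.00746). In MMACSF PTPRM rose by 1.39 ± 0.12 (limma adjusted p = 0.00201), together with NRP2.

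Related adhesion molecules showed changes in both directions. Of 12 other immunoglobulin molecules tested in COLO858, NEGR1 and MCAM rose and ICAM1 fell. NEGR1, a lipid-anchored molecule of neurons, went from 0.346 and 0.485 FPKM to 3.28 and 4.74 FPKM at 48 h, a change of 1.81 ± 0.22 (limma adjusted p = 0.00527). MCAM, a melanoma adhesion molecule, was at 65.2 and 59.7 FPKM under DMSO, 49.3 and 45.5 FPKM at 24 h and 205 and 192 FPKM at 48 h. Like NCAM1 it was near or below its DMSO level at 24 h and above it at 48 h. In MMACSF the MCAM change at 48 h was -0.01 ± 0.10, and the lines differed by 1.66 ± 0.13 (limma adjusted p = 0.000134). NEGR1 reached the minimum only in COLO858 in drug, so that its values are a description. It was not tested in MMACSF, where it was under 1 FPKM, and the interaction gave 1.93 ± 0.24 (limma adjusted p = 0.00116).

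ICAM1, a ligand of leukocyte integrins, fell in both lines, by 1.24 and 1.17 on the log2 scale (limma adjusted p = 0.00343 and 0.00398). IGSF3 rose in MMACSF by 0.90 ± 0.11 (limma adjusted p = 0.00504), while COLO858 had -0.73 ± 0.13 (limma adjusted p = 0.0151), a difference of -1.62 ± 0.13 (limma adjusted p = 0.000155). Of 5 tested genes of the CADM and nectin families in COLO858, CADM4 rose by 1.66 ± 0.18 and PVRL1, the gene of nectin-1, fell by 1.25 with an SE of 0.15 (limma adjusted p = 0.00405 and 0.00518). CADM4, which joins Schwann cells to axons, reached 167 and 143 FPKM in COLO858 at 48 h from 54.0 and 43.2 FPKM. In MMACSF it did not exceed 0.711 FPKM. PVR, the poliovirus receptor of that family, fell in MMACSF by 1.51 with an SE of 0.18 (limma adjusted p = 0.00498). No other gene in the list of the L1 and contactin families passed in either line at 48 h. That list also holds genes of contactin-associated proteins, and 2 of its genes were tested in COLO858 and 5 in MMACSF. Of these, 1 and 2 had an unadjusted limma p under 0.05, as had 4994 of 12696 and 4907 of 12599 genes.

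Of 24 cytoplasmic adaptors tested in COLO858, 2 rose and 0 fell in limma. That is 8.33%, near the 9.47% of all genes called. SPTAN1, an α chain of the spectrin skeleton to which ankyrins couple L1 proteins, was at 27.5 and 25.5 FPKM under DMSO and 82.2 and 75.9 FPKM at 48 h. The change was 1.54 ± 0.12 (limma adjusted p = 0.00183), and EPB41L3 was the other. In MMACSF SPTAN1 changed by 0.35 ± 0.13 (limma adjusted p = 0.0984), and the lines differed by 1.19 ± 0.15 (limma adjusted p = 0.00142). Of the proteases and glycosyltransferases, 0 of 8 passed in COLO858 in limma. There 4 of the 8 had an unadjusted limma p under 0.05, as had 4994 of 12696 genes. In MMACSF 2 of 9 rose. These were BACE1, a protease that cuts CHL1, with 1.46 ± 0.19, and B3GAT1 with 1.43 ± 0.14 (limma adjusted p = 0.00645 and 0.00297). B3GAT1 makes the HNK-1 sugar carried by several neural adhesion molecules. It was at 2.33 and 2.01 FPKM under DMSO and 7.57 and 7.52 FPKM at 48 h in MMACSF, and did not exceed 1.03 FPKM in COLO858. The difference between the lines was -1.89 ± 0.19 (limma adjusted p = 0.000445).

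**Figure D4:**
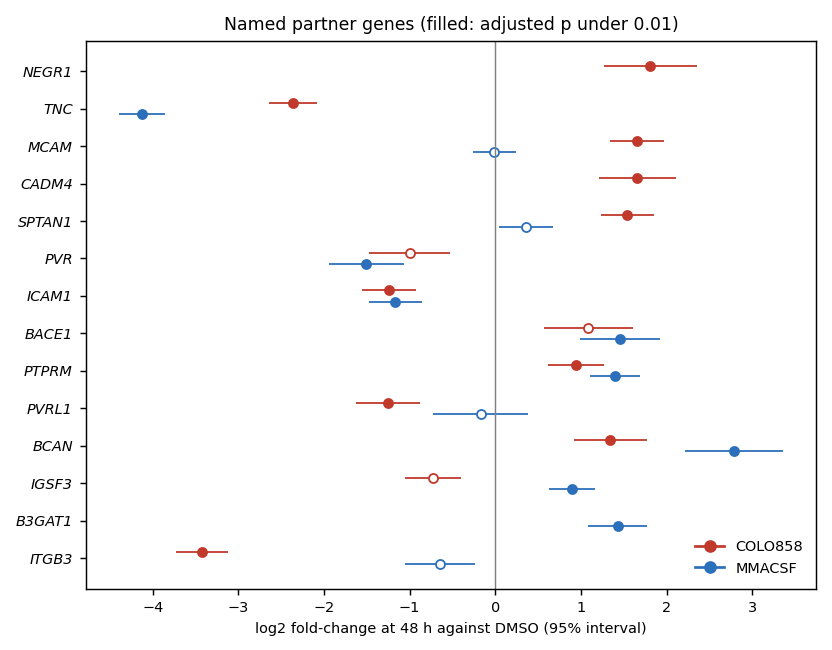
Log2 fold-change at 48 h against DMSO of the 14 named partner genes in COLO858 (red) and MMACSF (blue), on the log2(FPKM + 1) scale and ordered by the difference between the lines. Bars are 95% intervals and filled points had an adjusted p under 0.01. TNC and ICAM1 are below 0 and BCAN and PTPRM above 0 in both lines, while ITGB3 lies at -3.43 in COLO858 and -0.65 in MMACSF.

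The genes most like the 3 members with the largest difference were sought among 13594 others, by the Euclidean distance of log2(FPKM + 1) profiles over the 12 libraries, each centered on the DMSO mean of its line. Nearest to CNTN6 were ADAM23 at 0.859 and SEMA3D at 0.865, which encode a surface protein without protease activity and a secreted semaphorin. In COLO858 the ADAM23 mean was 5.55 FPKM without drug, then 14.0 and 73.8 FPKM with it, and in MMACSF 16.9, 20.7 and 21.1 FPKM. Nearest to PTPRZ1 were the collagen gene COL5A2 at 0.698 and RHOJ, the gene of a small GTPase, at 0.752. RHOJ averaged 7.54, 26.3 and 75.8 FPKM in COLO858 and 7.13, 11.1 and 10.6 FPKM in MMACSF. Nearest to ALCAM were SEMA3E at 0.398 and COL3A1, one of the fibroblast markers, at 0.449. COL3A1 averaged 0.165, 2.12 and 6.56 FPKM in COLO858 and no more than 0.0292 FPKM in MMACSF. Among members, CNTN6 and PTPRZ1 were at a distance of 0.955, ALCAM and NCAM2 at 1.02 and CNTN6 and ALCAM at 1.04. CADM1, NRCAM and CNTN1 were at 4.19 or more from each of CNTN6, PTPRZ1 and ALCAM. Distances describe likeness over libraries that share controls and carry no test.

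Strand use in the counting was not given in the sources used here. In the GENCODE annotation, exons of 3 of the 10 members, L1CAM, CHL1 and NCAM1, overlap exons of genes on the other strand, and reads of these cannot be told apart if strand was not used.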

How the data were processed

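RNA-seq libraries (stranded mRNA, ERCC spike-in, single reads) of 12 samples were made by the authors. Per the labels and the study's methods, the authors aligned with TopHat (hg19, default settings) and then ran Cuffdiff on Galaxy. They deposited 1 table per line of normalized values, taken to be FPKM. Program versions, annotation, strand setting and library scaling are not given in the sources used here. FPKM hide the read depth, and whole reads were not recovered, so no counting error is given.

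No value column (0 of 12) was set aside. Groups came from the sample titles. Each line was fitted with limma 3.58.1 in R 4.3.3 on log2(FPKM + 1), with 3 groups and a mean-variance trend, where any group mean reached 1 FPKM. Differences between the lines were an interaction over 12 libraries. P-values are two-sided and Benjamini-Hochberg adjusted over all genes tested, with the study's threshold of 0.01. With 2 replicates, which may be technical, p-values measure only the spread between these samples. Intervals are 95% and unadjusted. The procedure was tested on simulated data. All 10 members are named. Partner genes named are, per line at 48 h, up to 4 called in each direction by size of change, at most 6 by the size of the difference between the lines, and, to complete counts of 2 or fewer, NRP2 and EPB41L3, chosen after their values were seen. CNTN4, marker genes and MIR4461 are named as context, and some Schwann cell markers are not reported here. Members and lists were chosen with earlier results of these data known. Alternatives were another pseudocount (0.1 FPKM), no minimum or 3 FPKM, median-ratio rescaling, dropping 1621 small RNA genes, no trend, only the groups compared, a replicate block and leaving out each library. Promoters are from RefSeq (GRCh38.p14) and gene positions from GENCODE 44 lifted to GRCh37.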

Additional observations from a re-analysis of the deposited data

Results flagged for a closer look

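The change of 8 genes was singled out because it differed between COLO858 and MMACSF at 48 h against DMSO in limma's interaction test, each time more positive in COLO858. In log2 units the differences were 1.52 for L1CAM, 1.87 for NRCAM, 1.80 for CHL1, 1.01 for NCAM1, 2.14 for NCAM2, 3.03 for CNTN6, 2.51 for ALCAM and 2.66 for PTPRZ1. Of these, 3 also differed between the lines in the step from 24 to 48 h, by 1.63 for NRCAM, 1.16 for NCAM1 and 2.13 for CNTN6. CNTN6 and NCAM2 reached the minimum FPKM only in drug, so that their differences are a description. With 2 replicates per group, no search for outlying samples could be made.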

How the results depend on the processing

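The 7 calls of COLO858 at 48 h held under all alternatives but 2 kinds. These were leaving out a library, which left 0 to 2, and a fit of only the groups compared, which left 6. The cause of the changes below was not tested. At 24 h the 3 COLO858 calls became 5 with median-ratio rescaling or without the small RNA genes, where the 1247 calls over all genes became 1516 and 1735. They became 2 with no minimum or only the groups compared, with 1019 and 679 over all genes, and 0 without any 1 library. From 24 to 48 h the 1 call became 0 with no minimum, a minimum of 3 FPKM or only the groups compared. The 175 calls over all genes then became 86, 163 and 35. The member call was also lost with any 1 library left out. It became 2 with rescaling or without small RNA genes, with 281 and 348 over all genes. In MMACSF the 2 calls at 48 h became 0 with no minimum or only the groups compared. The 1113 calls over all genes then became 842 and 576. Both member calls were also lost with any 1 library left out. There, 0 members were called at 24 h and from 24 to 48 h without any 1 library. Of the differences between the lines, the 8 at 48 h became 5 with only the groups compared and 4 to 6 without 1 library. At 24 h the 0 became 1 with rescaling or without small RNA genes and stayed 0 without any 1 library. From 24 to 48 h the 3 became 1 with no minimum and 0 with only the groups compared. The 403 calls over all genes then became 405 and 196. NRCAM and NCAM1 were also lost without any 1 library, and CNTN6 without some of them. The 11 and 10 partner genes called at 48 h became 5 and 6 with only the groups compared. The 1202 and 1113 calls over all genes then became 493 and 576. Fewer partner genes also remained without any 1 library, both within the lines and of the 12 that differed between them.

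Signs turned for uncalled changes only. Leaving out 1 library moved the log2 change in COLO858 at 24 h between -0.10 and 0.077 for NCAM1 and between -0.13 and 0.24 for CADM1. In MMACSF it moved between -0.062 and 0.29 for PTPRZ1 at 24 h, between -0.063 and 0.22 for NCAM2 at 48 h and between -0.53 and 0.080 for CNTN1 from 24 to 48 h. With 0.1 FPKM added, the difference between the lines became -0.077 for NRCAM at 24 h and 0.26 for CNTN1 at 48 h. Over all members, 922 of 1084 alternative values kept their direction and side of the threshold.

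Groups share replicate numbers, but the labels do not say what a number marks, and only 2 pairs enter a comparison. Deviations of same-numbered libraries correlated at 0.20 to 0.21 across 12696 genes in COLO858 and 0.063 to 0.11 across 12599 in MMACSF, and at 0.59 to 0.78 without small RNA genes. With the replicate number as a block, COLO858 had 6 members called at 24 h, 7 at 48 h and 6 from 24 to 48 h, and MMACSF 3, 6 and 0. The differences numbered 7, 9 and 7. Over all genes the same fit called 5719, 5549 and 2280 in COLO858, 3284, 3790 and 32 in MMACSF, and 2396, 3434 and 1774 differences. Partner genes numbered 37, 31 and 29 at 48 h.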
